A study of Mus musculus with 8 samples.

Results

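The 6 genes that encode the enzymes writing and removing DNA methylation in mouse were examined for binding of TET1, itself the product of 1 of them. The members were the TET1 peaks that overlapped fixed mm9 windows around Tet1 (chr10:62257000-62382000), Tet2 (chr3:133116000-133218000), Tet3 (chr6:83302000-83420000), Dnmt1 (chr9:20701000-20775000), Dnmt3a (chr12:3796000-3925000) and Dnmt3b (chr2:153464000-153524000). They came to 401 of the 446708 peaks of 6 deposited lists, or 114 of 137027 regions once peaks that overlapped or touched between lists were merged. By locus, Tet1 held 10 regions, Tet2 5, Tet3 26, Dnmt1 26, Dnmt3a 39 and Dnmt3b 8. The windows were chosen by gene and not by any measured value, and they reach past the genes, so a region may belong to a neighbour. In the RefSeq order of protein-coding genes the neighbours are Ccar1 and Slc25a16 for Tet1, Ppa2 and Cxxc4 for Tet2, Bola3 and Dguok for Tet3, Eif3g and S1pr2 for Dnmt1, Dtnb and Pomc for Dnmt3a, and Commd7 and Mapre1 for Dnmt3b.

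Chromatin bound by TET1 was precipitated with an HA antibody from mouse embryonic stem cells of genotype HA-Tet1, in which the endogenous protein carries an HA tag. The line is described as E14TG2a in the series design and as strain C57BL/6N in the sample labels, and how many clones were used is not given in the sources used here. All cells were permeabilised and then either mock treated or incubated for 20 min with RNase H1 (0.2 U/ul) and Nuclease S1 (0.05 U/ul), and both groups were then crosslinked with disuccinimidyl glutarate and formaldehyde. Each group had 3 ChIP libraries and 1 pooled input, and the labels of the treated samples name RNAse H1 alone while the protocol names both enzymes. RNase H1 degrades RNA paired with DNA and Nuclease S1 cuts single-stranded nucleic acids, so the comparison is of TET1 occupancy with and without both activities. Mock lists held 73602 to 83601 peaks and treated lists 62161 to 74404, over a genome-wide mean coverage of 2.131 to 2.253 and 1.929 to 2.239 fragments. No label ties the replicates to separate cultures, so p-values here reflect only the scatter of these libraries, which may be technical.

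DNA methylation is placed on cytosines of CpG dinucleotides by the DNMT enzymes and is removed through stepwise oxidation by the TET enzymes. DNMT1 is the maintenance methyltransferase that copies methylation onto newly replicated strands, whereas DNMT3A and DNMT3B methylate sites anew. TET1, TET2 and TET3 are dioxygenases that oxidise 5-methylcytosine to 5-hydroxymethylcytosine and beyond. TET1 carries a CXXC zinc finger that binds CpG-containing DNA, and in embryonic stem cells it is known to occupy CpG-rich promoters. Embryonic stem cells express Tet1 and Tet2 and the 3 Dnmt genes, while Tet3 is best known from oocytes, the zygote and differentiated cells.

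Since TET1 is drawn to CpG-rich DNA, the promoters of these genes are shown for their CpG content. RefSeq (GRCm38.p6) lists 10 starts for the 6 genes among 32851 promoters, and all 6 genes were matched. The 250 bases before a start held a median of 6 CpG over all promoters, with quartiles of 2 and 16. Tet2 had 51 CpG, more than 99.9% of promoters had. Dnmt3a had 38, 40 and 15 CpG at its 3 starts, Dnmt3b had 21, Tet3 17 and Tet1 15. Dnmt1 spanned the range, with 2, 7 and 26 CpG at its 3 starts. The GC box GGGCGG, searched on both strands as GGGCGG or CCGCCC, was found at 8 of the 10 starts, all but the first and the second of Dnmt1, and in 32.7% of all promoters. A match describes these letters only. The 250 bases upstream of the Tet1 start (chr10:62887325-62887574, minus strand), the Tet2 start (chr3:133544391-133544640, minus strand), the first Dnmt1 start (chr9:20959889-20960138, minus strand) and the Dnmt3b start (chr2:153649199-153649448, plus strand) follow, read 5′ to 3′ on the gene's strand with each CpG in capitals. Their CpG counts of 15, 51, 2 and 21 stand against the median of 6. These positions are on GRCm38.p6 and were not placed on mm9, so whether a peak covers a promoter was not determined here.
Tet1: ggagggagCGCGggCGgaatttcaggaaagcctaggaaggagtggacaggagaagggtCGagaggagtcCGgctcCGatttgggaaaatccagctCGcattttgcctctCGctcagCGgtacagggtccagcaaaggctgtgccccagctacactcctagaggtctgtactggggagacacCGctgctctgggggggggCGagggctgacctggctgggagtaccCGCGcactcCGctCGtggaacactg
Tet2: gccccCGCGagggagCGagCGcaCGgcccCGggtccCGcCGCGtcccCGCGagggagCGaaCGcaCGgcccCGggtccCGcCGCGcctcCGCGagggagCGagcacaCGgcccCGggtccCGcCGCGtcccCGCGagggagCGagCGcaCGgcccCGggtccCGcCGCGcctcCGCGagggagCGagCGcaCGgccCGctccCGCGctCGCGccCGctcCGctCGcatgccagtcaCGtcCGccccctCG
Dnmt1, first start: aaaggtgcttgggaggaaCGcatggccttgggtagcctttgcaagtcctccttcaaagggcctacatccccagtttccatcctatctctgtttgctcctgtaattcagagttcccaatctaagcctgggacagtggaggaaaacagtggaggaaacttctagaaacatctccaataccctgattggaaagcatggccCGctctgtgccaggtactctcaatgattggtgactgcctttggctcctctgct
Dnmt3b: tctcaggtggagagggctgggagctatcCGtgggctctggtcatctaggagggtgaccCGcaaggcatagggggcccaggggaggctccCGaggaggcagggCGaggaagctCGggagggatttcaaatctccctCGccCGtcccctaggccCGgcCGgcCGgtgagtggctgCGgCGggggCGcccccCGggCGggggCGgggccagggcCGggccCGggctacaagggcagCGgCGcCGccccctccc

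TET1 bound all 6 loci, in 2 patterns. Tet1, Tet2 and Dnmt3b carried 1 or a pair of strong regions with little around them, and Tet3, Dnmt1 and Dnmt3a carried many regions along most of the window. Regions with a peak in every library numbered 2 at Tet1, 2 at Tet2 and 1 at Dnmt3b, against 5 at Tet3, 7 at Dnmt1 and 9 at Dnmt3a. Per 100 kb of window this was 1.6, 1.96 and 1.67 regions in the first 3 loci, and 4.24, 9.46 and 6.98 in the others. Dnmt1 was therefore the most densely bound of the 6 by this count. The 26 regions found in every library had a median width of 1288.5 bp. The 46 regions found in 2 to 5 libraries were narrower, at a median of 504.5 bp, and the 42 found in a single library narrower still, at 290.5 bp. A region merged from more peaks is wider by construction. The share found in every library, 22.8%, was close to the 21.6% of all regions of the genome.

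**Figure D1:**
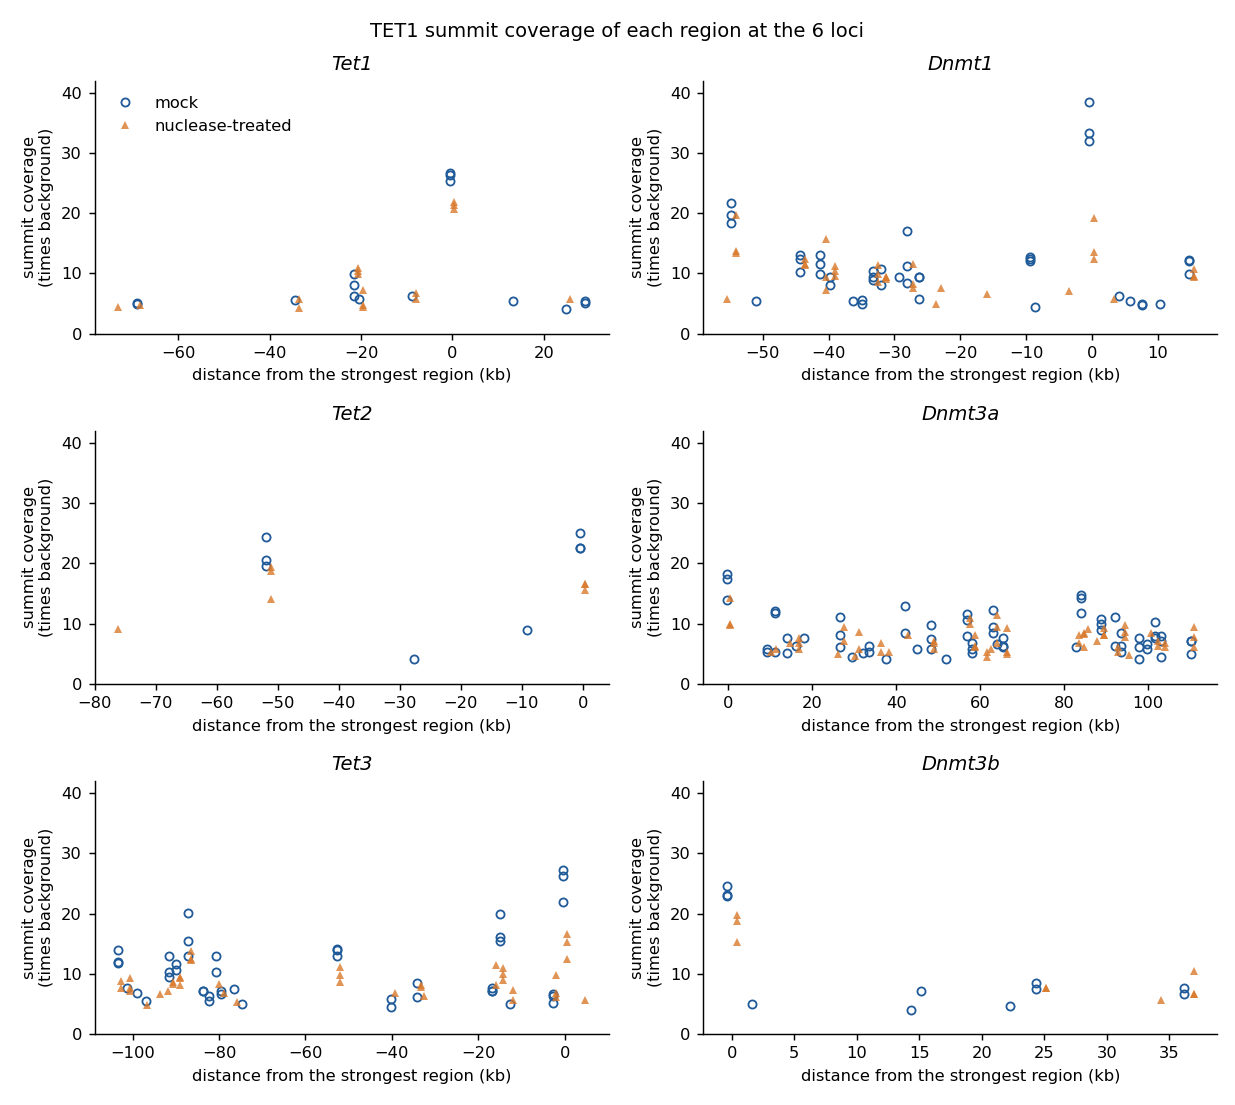
Summit coverage of each TET1 region (vertical axis, times the library's genome-wide background) against its distance in kb from the strongest region of the locus (horizontal axis), with 1 mark per library that had a peak there (circles mock, triangles nuclease-treated, shifted slightly sideways for legibility). Tet1, Tet2 and Dnmt3b show isolated strong regions, and Tet3, Dnmt1 and Dnmt3a show many; at Dnmt1 the strongest region reached 38.5 times background in mock and at most 19.2 after treatment.

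The strongest TET1 binding of each locus was lower in the nuclease-treated libraries, at all 6 loci. Strength is given as the number of fragments over the peak's summit divided by the genome-wide mean of the same library, called times background here; it was recovered from the deposited fold and p. The highest value per library was 26.2 ± 0.759 times background at Tet1 in mock and 21.3 ± 0.573 after treatment (SD, n = 3 per group). At Tet2 it was 24.0 ± 1.26 and 18.3 ± 1.50, at Tet3 25.1 ± 2.79 and 15.2 ± 1.37, and at Dnmt1 34.6 ± 3.47 and 18.2 ± 2.2 (SD, n = 3 per group). At Dnmt3a it was 16.8 ± 1.78 and 11.3 ± 2.55, and at Dnmt3b 23.6 ± 0.925 and 17.9 ± 2.38 (SD, n = 3 per group). No treated library reached a mock library at any locus. Of all 100 kb tiles of the genome with a peak in every library, 60.0% had lower values without overlap and 0.671% higher ones, so 6 of 6 loci is read against a common genome-wide change. The treated mean was 0.815 of the mock mean at Tet1, 0.760 at Tet2, 0.759 at Dnmt3b, 0.674 at Dnmt3a, 0.606 at Tet3 and 0.526 at Dnmt1, where the median tile had 0.721 and the middle 50% of tiles 0.623 to 0.850. The exact two-sided permutation test gave p = 0.1 at each locus, the smallest that 3 libraries against 3 allow, and 0.375 after Benjamini-Hochberg adjustment over the 30 tests of 5 measures at 6 loci. At 5 loci, all but Tet1, the strongest region lay within 20 kb of a window edge, and narrowing the windows by that much left it out. The treated minus mock difference then went from -16.4 to -3.36 times background at Dnmt1, from -9.91 to -6.05 at Tet3, from -5.47 to -3.37 at Dnmt3a and from -5.77 to -4.10 at Tet2, still without overlap, and could not be computed at Dnmt3b. Among peaks of low local background it was -13.5 at Tet1, where the groups overlapped (exact two-sided permutation p = 0.2), -15.4 at Tet3 and 1.25 at Dnmt3b. The mean local background at the strongest region was 1.5 in mock and 2.04 after treatment at Tet1, and 1.26 and 2.36 at Tet3. The limit of 1.5 thus dropped strong peaks, so these differences do not compare the same peaks in both groups. On the authors' fold the Dnmt3a, Dnmt3b and Tet2 differences were -2.62, -3.04 and -3.01. No share of tiles was computed for these alternatives.

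**Figure D2:**
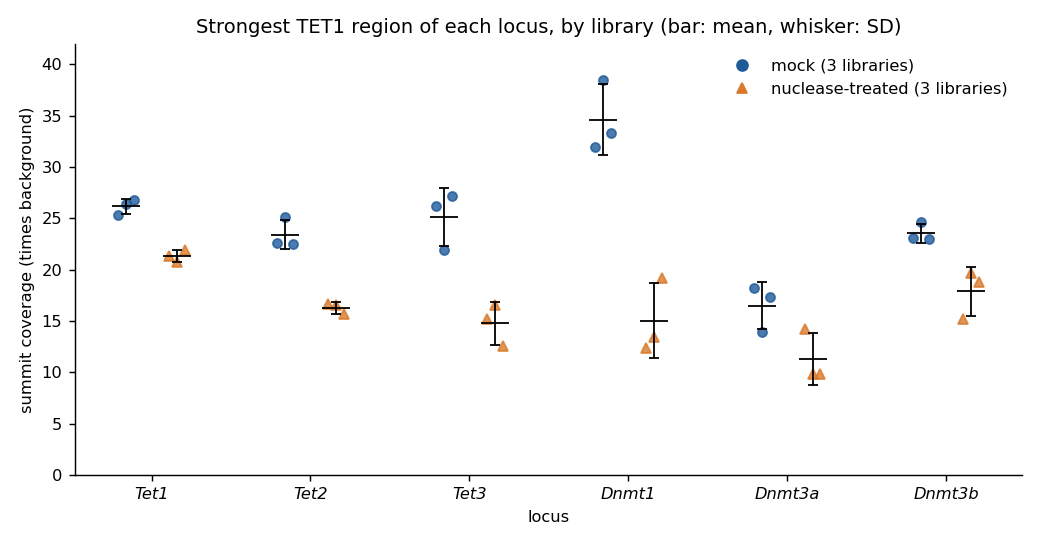
Summit coverage (vertical axis, times background) in each library at the strongest region of each locus, defined by the mean of the 6 libraries, with horizontal bars for the mean and whiskers for the SD of 3 libraries. Mock circles lie above treated triangles at 5 loci; at Dnmt3a the lowest mock library (13.9) lies below the highest treated one (14.2).

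Tet1, the gene that carries the tagged allele, kept most of its strongest signal. That region, chr10:62348523-62350263, had 25.3, 26.4 and 26.7 times background in mock (replicates in the order 1, 2, 3, as in all such lists here) and 21.4, 20.7 and 21.9 after treatment. All 3 treated libraries lay below all 3 mock libraries, over peaks of similar extent (1580 ± 140 and 1480 ± 150 bp; SD, n = 3 each). In limma's fit over the 29613 regions of the genome with a peak in every library, its log2 change was -0.29 (SE 0.174, adjusted p = 0.198), which did not pass the threshold of 0.05. With the authors' fold in place of coverage it passed (adjusted p = 0.00654). The second Tet1 region, chr10:62327954-62328651, lay 21.1 kb away. It had 7.99, 6.27 and 9.85 times background in mock and 10.9, 10.4 and 9.83 after treatment, so the groups overlapped slightly with the treated values on the higher side. Its log2 change of 0.39 (SE 0.194) did not pass (limma adjusted p = 0.125). Without mock replicate 3 it passed (0.55, limma adjusted p = 0.0484), and on the authors' fold its direction turned (-0.145, limma adjusted p = 0.549).

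Tet2, whose product lacks the CXXC domain of TET1 and TET3, had a pair of strong regions 51.5 kb apart and almost nothing else. The stronger, chr3:133207024-133208215, fell, with 22.6, 25.1 and 22.5 times background in mock and 16.6, 16.6 and 15.6 after treatment. Its log2 change was -0.52 (SE 0.175, limma adjusted p = 0.0280), and the sequence under its peaks went from 1140 ± 43.1 to 661 ± 167 bp (SD, n = 3 per group; not tested). The call held without mock replicate 3 but was lost without any one of the other 5 libraries (limma adjusted p 0.0585 to 0.0946). The other region, chr3:133155618-133156667, had 19.53, 20.61 and 24.40 times background in mock and 19.47, 14.00 and 18.76 after treatment, so the groups all but met. Its log2 change of -0.31 (SE 0.191) did not pass (limma adjusted p = 0.211). Of the 5 regions in the window, the other 3 were each seen in a single library.

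Tet3 had 2 regions that fell among 5 tested. The strongest, chr6:83404760-83407563, had 26.2, 21.9 and 27.2 times background in mock and 15.2, 16.6 and 12.5 after treatment, a log2 change of -0.77 (SE 0.187, limma adjusted p = 0.00524). Its change was -1.46 on the authors' fold and -1.37 among peaks of low local background. The local background at its highest peaks averaged 1.26 times the genome-wide level in mock and 2.36 after treatment. The limit of 1.5 thus left weaker treated peaks, so -1.37 does not compare the same peaks. With all peaks kept, every treated library lay well below every mock library. The sequence under the peaks of this region was 2340 ± 278 and 2200 ± 174 bp (SD, n = 3 per group). The second, chr6:83391006-83391990, 14.7 kb away, had 20.0, 16.1 and 15.5 times background in mock and 9.97, 10.9 and 8.93 after treatment. Its log2 change was -0.79 (SE 0.185, limma adjusted p = 0.00441), and its peaks covered 917 ± 59.1 bp in mock and 574 ± 185 bp after treatment (SD, n = 3 per group; not tested). The widest region of all 6 loci lay here too, chr6:83317362-83321186 with 3825 bp, 86.9 kb from the strongest. It had 12.9, 20.2 and 15.5 times background in mock and 12.3, 12.4 and 13.8 after treatment, overlapping groups that did not pass (log2 -0.31, SE 0.194, limma adjusted p = 0.231). On the authors' fold it passed (-0.73, limma adjusted p = 0.00445). A further region, chr6:83352617-83354901, missed the threshold narrowly on coverage (limma adjusted p = 0.0504) and passed on the authors' fold (0.00273).

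Dnmt1, the maintenance methyltransferase gene, held the region with the highest mock coverage and the largest change among the 26 tested. This region, chr9:20756476-20757747, had 32.0, 38.5 and 33.3 times background in mock, or 72, 86 and 71 fragments. After treatment it had 12.3, 13.5 and 19.2 times background, or 26, 26 and 43 fragments. The groups lay far apart, with a log2 change of -1.23 (SE 0.198, limma adjusted p = 0.000615), which is 0.427 of the mock level. Only 0.615% of all regions tested had a more negative change. The call held in all 12 alternatives in which the region could be tested, with log2 changes of -1.42 to -1.10 when single libraries were left out. The sequence under its peaks was 1120 ± 111 bp in mock and 989 ± 98.6 bp after treatment (SD, n = 3 per group), so the peak was lower with a similar extent. In treated replicates 1 and 2 the highest peak of the window was not this one.

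No other Dnmt1 region passed the threshold on coverage, and a pair could not be followed. On the authors' fold 3 more passed, the second strongest (log2 -0.58, limma adjusted p = 0.0154), chr9:20728797-20730192 (-0.76, limma adjusted p = 0.00668) and chr9:20771398-20773108 (-0.77, limma adjusted p = 0.00292). The second strongest, chr9:20702223-20703212, lay 54.4 kb away, near the edge of the window. It had 21.8, 18.4 and 19.7 times background in mock and 13.8, 19.7 and 13.4 after treatment. Treated replicate 2 lay among the mock values, and the change did not pass (log2 -0.37, SE 0.194, limma adjusted p = 0.143). The broad region chr9:20711458-20714841 (3384 bp) had nearly equal values in both groups, 11.96 ± 1.48 and 11.82 ± 0.552 times background (SD, n = 3 per group). Its log2 change was -0.01 (SE 0.181, limma adjusted p = 0.971). A further pair of regions had a peak in all 3 mock libraries and in no treated one. One of these, chr9:20747944-20748311, lay 9.0 kb from the strongest region and had 12.4, 12.1 and 12.7 times background in mock, values that hardly varied. The other, chr9:20730897-20731502, had 9.32, 5.82 and 9.39.

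Dnmt3a, a de novo methyltransferase gene, had the most regions but the lowest top signal. Its strongest region, chr12:3805891-3809021, had 18.2, 13.9 and 17.4 times background in mock and 14.2, 9.85 and 9.83 after treatment, so the groups overlapped by treated replicate 1. It passed the threshold (log2 -0.56, SE 0.199, limma adjusted p = 0.0370), but not without mock replicate 1 or 3 or without treated replicate 2 or 3 (adjusted p 0.0818 to 0.139), not with the authors' fold (0.0934), not among peaks of low local background (0.119) and not with regions lacking a peak in 1 library of a group included (0.0592). The peaks there covered 2690 ± 387 bp in mock and 1650 ± 447 bp after treatment (SD, n = 3 per group; not tested). A second region that fell, chr12:3891170-3892390, 84.3 kb away, had 14.2, 14.8 and 11.7 times background in mock and 6.17, 8.30 and 8.49 after treatment, without overlap. Its log2 change was -0.83 (SE 0.191, limma adjusted p = 0.00394). The third by strength, chr12:3870632-3871385, had 10.0 ± 1.95 and 9.17 ± 2.34 times background (SD, n = 3 per group), overlapping groups (limma adjusted p = 0.634). Here too a pair of regions had a peak in all 3 mock libraries only. They were chr12:3818908-3819245, at 5.33, 12.1 and 11.7 times background, and chr12:3905584-3906057, at 7.55, 4.03 and 6.10.

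Dnmt3b, the other de novo methyltransferase gene, had a single region found in every library. This region, chr2:153474540-153476523, had 23.1, 24.6 and 23.0 times background in mock and 15.2, 19.7 and 18.8 after treatment, without overlap. Its log2 change of -0.41 (SE 0.182) did not pass in the fit (limma adjusted p = 0.0892), although it did with a stricter q-value threshold (0.0309), with the authors' fold (0.0242) and with a trend in the variance (0.0439). Its local background, the level the peak caller takes from the input or the surroundings, was 2.02 times the genome-wide level in mock and 2.22 after treatment. The other 7 regions of the window were weak, and 5 of them were seen in a single library.

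Over all 6 loci, 6 of the 26 regions tested fell and none rose (limma, adjusted p below 0.05). Of all 29613 regions tested, 33.0% fell and 0.324% rose, so the 23.1% at these loci is not above the genome. The 6 were 2 at Tet3, 2 at Dnmt3a, 1 at Dnmt1 and 1 at Tet2. At an unadjusted p below 0.05 there were 8 of the 26, all lower. Over the genome there were 13216 of the 29613, of which 270 were higher. The median log2 change was -0.26 over the 26 regions and -0.35 over the genome. Coverage thus shifted downwards across the genome, and a second fit took each library relative to its own median. Relative to that shift, 1 of the 26 regions was lower and 2 were higher, against 1.94% and 1.50% of all regions. The lower one was the strongest Dnmt1 region (log2 -0.87 relative to the median, limma adjusted p = 0.0278). The higher ones were the second Tet1 region (0.74, limma adjusted p = 0.0436), whose direction turned on the authors' fold, and chr12:3901282-3901791 at Dnmt3a (0.76, limma adjusted p = 0.0462). The last of these was named after its values were seen; it had 5.33, 6.27 and 8.45 times background in mock and 8.55, 7.78 and 9.83 after treatment, and on the unshifted scale it did not pass with all libraries (limma adjusted p = 0.122) but did without mock replicate 3 (0.0376). The other regions that fell did not pass relative to the median, with limma adjusted p of 0.161 and 0.182 at Tet3, 0.138 and 0.563 at Dnmt3a and 0.582 at Tet2. On the authors' fold, 12 of the 26 regions fell, against 55.8% of all regions.

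**Figure D3:**
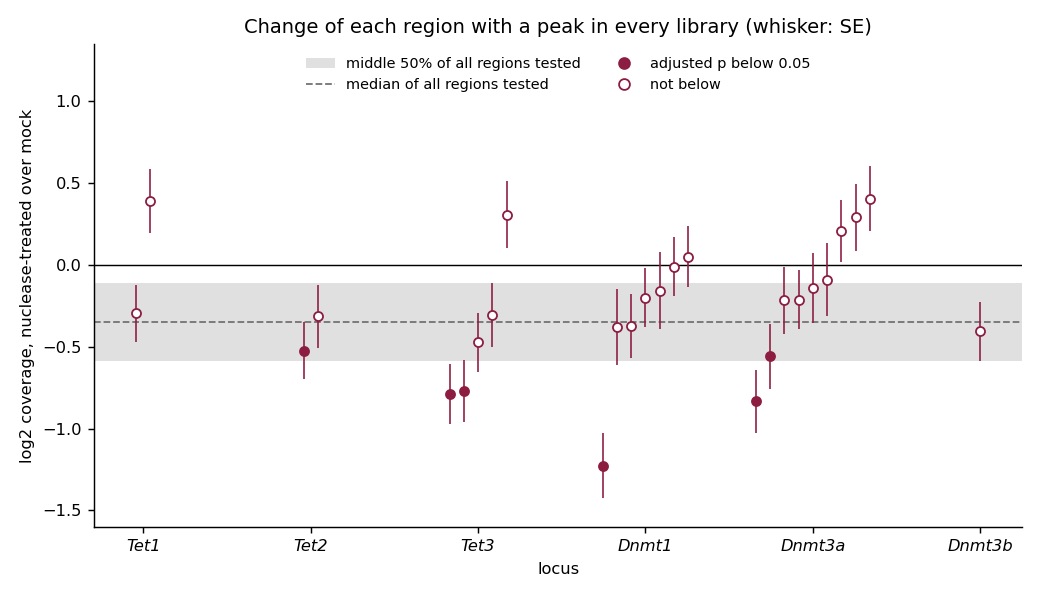
Log2 change of coverage, nuclease-treated over mock (vertical axis), for the 26 regions with a peak in every library, grouped by locus, with the SE as whiskers and filled circles where the adjusted p was below 0.05. The dashed line is the median of all 29613 regions (-0.35) and the grey band their middle 50% (-0.59 to -0.11); the strongest Dnmt1 region at -1.23 lies farthest below it, and 6 regions lie above 0.

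Stronger regions of the genome had more negative changes, which sets the scale for the strong regions named here. Among the 6184 regions whose mean over the 6 libraries was 16 times background or more, the median log2 change was -0.62, with quartiles of -0.79 and -0.45, and 69.5% fell. Of the 7 such regions at the 6 loci, 3 fell, and their median was -0.41. The strongest regions of Tet1 (-0.29) and Dnmt3b (-0.41), the weaker of the Tet2 pair (-0.31) and the second of Dnmt1 (-0.37) lay above the upper quartile of that class, and the strongest Dnmt1 region (-1.23) lay below the lower one. Among the 4622 regions under 8 times background the median was -0.04 and 3.83% fell, and none of the 6 at these loci fell. A region needed a peak in every library to be tested, so weak regions that lost their peak are missing from these values.

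Dnmt1 stood lower relative to Tet1, Tet2 and Dnmt3b after treatment, and Tet3 relative to Tet1, in comparisons that the design cannot carry past a threshold. The change of the highest coverage was compared between loci within libraries for 15 pairs. The highest value of a locus need not come from the same region in every library. At Dnmt1 it came from another region in treated replicates 1 and 2 than in mock, and at Tet3 in treated replicate 3. At Tet2 it moved between the pair of strong regions within both groups. The groups did not overlap for 4 pairs: Tet1 against Tet3, and Dnmt1 against Tet1, Tet2 and Dnmt3b. The 15 ratios reuse the same highest values, so the pairs with Dnmt1 share its change and are not separate results. No genome-wide share of such pairs was computed. The log2 ratio of Tet1 to Dnmt1 was -0.40 in mock and 0.24 after treatment, so the order of these 2 loci by highest value was inverted. That of Tet1 to Tet3 went from 0.06 to 0.49. Each of the 4 had an exact two-sided permutation p = 0.1, or 0.375 adjusted over the 15 pairs.

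Regions with a peak called in every mock library and in no treated one lay at Dnmt1 and Dnmt3a. At the 6 loci 37 regions had a peak in each mock library, and 4 of these (10.8%) lacked one in every treated library, against 6.67% over the genome. No region had the opposite pattern, against 1.68% of the regions found in all 3 treated libraries over the genome. Without mock replicate 1, 2 or 3, the mock-only regions numbered 5, 6 and 7. Leaving out a library eases the rule, so this count cannot fall. No genome-wide share stands beside these 3 counts. Presence in 3 libraries against absence in 3 cannot pass a test, and the lists give no coverage where no peak was called, so the treated level at these 4 regions is not known. Among the 42 regions seen in 1 library alone, 22 came from mock and 20 from treated libraries.

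With the lists as deposited, the number of peaks and their width overlapped or touched between the groups at every locus, but peak number depended on which peaks were kept. Tet1 had 6, 4 and 5 peaks in mock and 5, 4 and 7 after treatment, and Dnmt1 had 18, 17 and 14 against 15, 12 and 14. Dnmt3a had 25, 29 and 20 peaks against 27, 21 and 23, and Tet3 had 19, 16 and 15 against 17, 18 and 14. Tet2 and Dnmt3b had between 2 and 5 in every library. Peak number gave no difference beyond the spread (exact two-sided permutation p from 0.3 to 1), where 7.67% of tiles had lower and 0.897% higher numbers without overlap. With the stricter q-value threshold the treated minus mock differences were -4.0 peaks at Tet3, -6.0 at Dnmt1 and -6.33 at Dnmt3a, each with the smallest exact permutation p of 0.1. In the lists as deposited they were -0.333, -2.67 and -1.0, so this threshold removed more treated than mock peaks there. Among peaks of low local background they were -7.33 at Tet3 and -8.33 at Dnmt1, also with an exact permutation p of 0.1. The median local background was 1.21 in mock and 1.63 after treatment at Tet3, and 1.17 and 1.53 at Dnmt1. The limit of 1.5 thus removed more treated than mock peaks, and these differences partly follow from it. With lists of equal length Dnmt1 differed by 0 peaks. Median peak width was lower after treatment at 3 loci and higher at 3, always with overlap (exact two-sided permutation p of 0.3 or more), where 16.9% of tiles had lower and 3.20% higher widths without overlap. For Tet1, Tet3 and Dnmt1, where it was higher, the direction turned with lists of equal length. Widths separated the groups at Tet2 with the stricter q (-317 bp), at Tet2 and Dnmt3a with equal list lengths (-317 and -124 bp) and at Dnmt1 in the narrowed window (155 bp), each with an exact permutation p of 0.1. The median coverage of the peaks of a locus was lower after treatment at 5 loci and higher at Tet1, with overlap at all 6 (exact two-sided permutation p of 0.2 or more). It went from 9.98 ± 0.575 to 9.16 ± 0.547 times background at Dnmt1 and from 8.62 ± 0.258 to 8.59 ± 0.542 at Tet3 (SD, n = 3 per group). Of the tiles, 22.5% had lower and 2.69% higher medians without overlap. On the authors' fold the treated median was lower without overlap at Tet3 (-1.19), Dnmt1 (-1.44) and Dnmt3a (-0.93), and in coverage with the stricter q at Tet2 (-5.35) and Tet3 (-2.20), each with an exact permutation p of 0.1. Equal list lengths gave nearly the same at Tet2 and Tet3, while the narrowed Tet3 window gave a higher treated median (0.622, exact permutation p of 0.1). Shares of tiles were computed for the lists as deposited only. No genome-wide share stands beside the alternatives given here for peak number, width and median coverage.

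The sequence under peaks of the lists as deposited was lower after treatment at 5 loci, and without overlap at 2 of them. At Dnmt3a it was 15131, 16261 and 12063 bp in mock and 12023, 9112 and 11063 bp after treatment, the lowest mock library lying just above the highest treated one. At Tet2 it was 2095, 2859 and 2147 bp in mock and 1832, 1733 and 1541 bp after treatment. Both gave an exact two-sided permutation p = 0.1, or 0.375 adjusted over the 30 tests, and 35.0% of tiles had lower and 0.889% higher covered sequence without overlap. At Tet3, Dnmt1 and Dnmt3b the treated means were 0.804, 0.921 and 0.789 of the mock means, with overlap. Tet1 alone had more covered sequence after treatment on average, 3353 ± 603 against 3132 ± 616 bp (SD, n = 3 per group), a difference within the spread. With the stricter q the treated libraries lay below the mock ones at 5 loci, by -542 bp at Tet2, -4782 at Tet3, -4067 at Dnmt1, -6041 at Dnmt3a and -957 at Dnmt3b, each with an exact permutation p of 0.1. At Tet3, Dnmt1 and Dnmt3a that threshold removed more treated than mock peaks, so the lower covered sequence there partly follows from it. No share of tiles was computed for this setting or for the alternatives below, so these loci are not set against the genome. Among peaks of low local background the differences without overlap were -1326 bp at Tet2, -7485 at Tet3, -5974 at Dnmt1 and -5149 at Dnmt3a (exact permutation p of 0.1 each). That filter removed more treated than mock peaks, so the lower covered sequence partly follows from it. With lists of equal length the Dnmt1 difference was -51 bp, and those of Tet2 (-542 bp) and Dnmt3a (-2550 bp) remained without overlap. In narrowed windows Tet2 (-190 bp) and Dnmt3a (-1809 bp) overlapped, whereas Tet3 (-2070 bp) and Tet1 (496 bp, higher after treatment) did not.

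**Figure D4:**
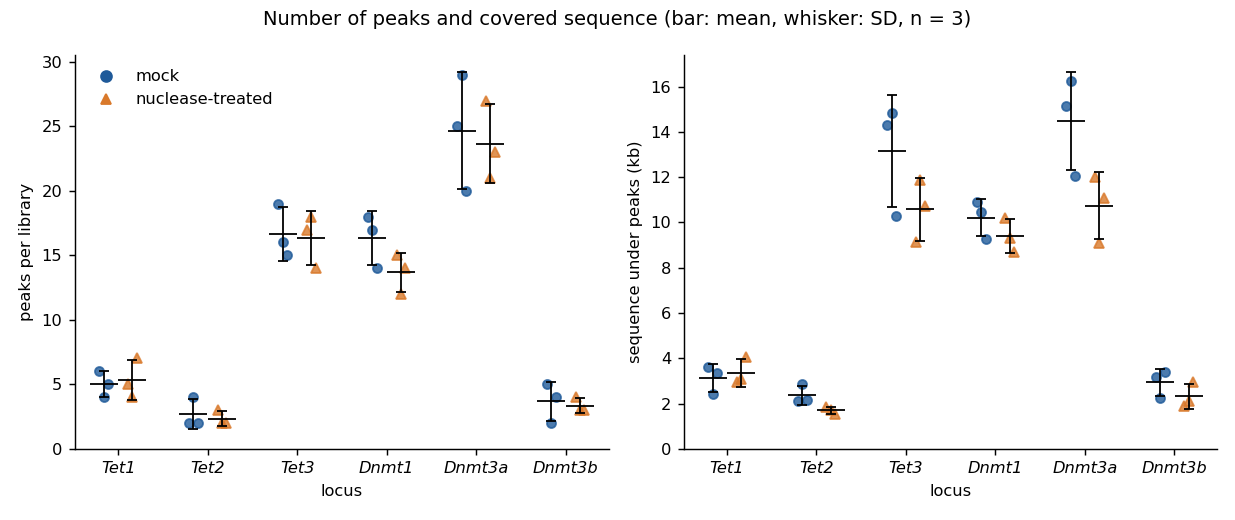
Number of peaks (left) and sequence under peaks in kb (right) per library at each locus, with horizontal bars for the mean and whiskers for the SD of 3 libraries (circles mock, triangles nuclease-treated). Peak numbers overlap or touch between groups at all 6 loci, and covered sequence is without overlap at Tet2 and Dnmt3a.

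The local background was on average higher after treatment at these loci, as it was over the genome. The median over the peaks of a locus, averaged over libraries, was 1.07 to 1.24 times the genome-wide level in mock and 1.25 to 1.63 after treatment. Library by library, the groups overlapped in this median at Tet1, Tet2 and Dnmt3b and not at Tet3, Dnmt1 and Dnmt3a. The mean local background was higher after treatment at each of the 6 loci, and over the genome it was 1.15 in mock and 1.43 after treatment. At the strongest Dnmt1 region it was 1.15 and 1.73, and at the strongest Tet3 region 1.26 and 2.36. This background enters the peak calls and the authors' fold but not coverage over the genome-wide background. The 3 libraries of a group shared 1 input, so they are not replicates of it and the difference was not tested. When peaks were limited to those with a local background of at most 1.5 times the genome-wide level, 9 regions were left in every library and 1 of them fell, the strongest of Tet3, against 8.22% of the 9031 such regions of the genome (limma, adjusted p below 0.05). At that Tet3 region the limit left weaker treated peaks than the full lists held, which enlarged its change. The limit removed more treated than mock peaks at the 6 loci, so differences under it partly follow from the filter.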

How the data were processed

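Each of the 6 ChIP libraries has a deposited peak list on mm9, called by MACS2 against the pooled input of its condition, per the names in the files. Peak calling was by MACS2 2.1.1 and alignment tools included Bowtie2 2.2.8, as listed in the submitters' processing notes; their settings are not given in the sources here. The authors' fold enrichment is a ratio of summit coverage to local background, each plus 1. The deposited p-value and q-value are −log10, while the score column deposited with them repeats the −log10 q, multiplied by 10 and truncated. No read counts were used. Whole-number summit coverage was recovered from fold and p (Poisson upper tail, tolerance 0.001 on −log10 p) for every peak at the 6 loci and all but 2 to 4 peaks of each list, and divided by the library's genome-wide background. Median summit coverage was 16 to 18 fragments, which limits single weak peaks.

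Peaks overlapping a window by 1 bp counted. Measures per locus (5 at each of 6 loci) were compared by exact permutation tests. The log2 of the highest coverage per region and library was fitted with limma 3.58.1 in R 4.3.3, with Benjamini-Hochberg adjustment over all 29613 regions that have a peak in every library. The recovery, merging and fit were tested on simulated data. Background for the locus measures came from 100 kb tiles with a peak in every library, for the lists as deposited and not for the alternatives. Samples were grouped by title. Named regions are the 3 strongest per locus found in every library, those past the threshold, and those found in all libraries of 1 group only. Members and lists were chosen with earlier results of these data known. The comparison between loci was added after seeing the data. No mm9 gene annotation or genome was used here, so regions are not assigned to exons, introns or promoters, and other genes of the pathway are not analysed here. RefSeq gave only gene order and promoter sequences. Neither input library is analysed here alone. Alternatives were a stricter q (−log10 q of 6.59 or more), local background of at most 1.5 times the genome-wide level, narrower windows, summits in the window, equal list lengths of 62161 peaks, a replicate block, the authors' fold, centring, a looser region set, a variance trend, 50% cover and leaving out each library.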

Additional observations from a re-analysis of the deposited data

How the results depend on the processing

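Of 617 recomputed values, 56 changed direction and in 513 neither direction nor call turned (counts to within 1.5 times); differences of 0 are among the latter, and their sizes could move by more than 1.5 times. The replicate block and summits in the window repeated the main difference of every locus measure. The block and the variance trend repeated every log2 change. The 513 thus include repeats of the main result and do not measure robustness as a whole. Lower highest coverage kept its direction in 76 of 77. The exception was Dnmt3b with low local background, at 1.25 times background higher after treatment, where the strongest region was no longer in every list. The stricter q, summits in the window, equal list lengths and the replicate block left this difference unchanged at every locus tested. Their values repeat the main result and add nothing to the count. The causes of the other changes were not tested. Differences below are treated minus mock. With low local background, a filter that removed more treated than mock peaks, Tet1 differed by -1.67 peaks, -1508 bp covered and -48.2 bp median width. Under the same filter median width differed by -28.8 bp at Tet3, -17.5 at Dnmt1 and 74.2 at Dnmt3b, and median coverage by 1.15 at Dnmt3b. With the stricter q, Tet1 differed by -27.7 bp covered, -23.5 bp in width and -2.88 in median coverage, Dnmt1 by -14.5 bp in width and 0.936 in median coverage, and Dnmt3b by 0.371 in median coverage. With equal list lengths, width differed by -463 bp at Tet1, -99.3 at Tet3 and -40.8 at Dnmt1, median coverage by -8.46 at Tet1, and peak number by 1 at Tet3, 2.33 at Dnmt3a and 0.667 at Dnmt3b. With narrowed windows, median coverage differed by -0.582 at Tet1 and 0.622 at Tet3, width by 45.2 bp at Tet2 and -26.3 at Tet3, and peak number by 0.333 at Dnmt3a. In the narrowed Dnmt3b window 3 values had no result because a library held no peak there. Leaving out single libraries moved the difference in peak number from -0.5 to 1 at Tet1, -0.667 to 0.333 at Tet2, -1.17 to 0.833 at Tet3, -3.33 to 1.17 at Dnmt3a and -1.17 to 0.333 at Dnmt3b. It moved covered sequence at Tet1 from -126 to 467 bp, width from -44.3 to 143 bp at Tet1, -11.7 to 152 at Tet3 and -45.7 to 12.3 at Dnmt3a, and median coverage from -0.538 to 1.49 at Tet1, -0.306 to 0.235 at Tet3 and -2.58 to 1.07 at Dnmt3b.

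Regions found in every library numbered 11 with the stricter q, 9 with low local background and 12 where peaks had to cover 50% of the region, against 26. A named region without a peak in every library under the stricter q or low local background, the strongest Dnmt1 region under the latter among them, was not fitted there. Mock-only regions numbered 9 with low local background and 4 to 7 without single libraries, and nuclease-only regions 0 to 2. Leaving out a library eases the rule for both kinds, so these counts cannot fall by it. Regions that fell numbered 1 with low local background, where 9 could be tested, 1 with centring and 12 with the authors' fold, against 6; those that rose numbered 2 with centring and 0 to 2 without single libraries. Over the genome, 9780 regions fell, 742 with low local background, 574 with centring and 16538 with the authors' fold. With centring, log2 changes turned to 0.059 at the strongest Tet1 region, 0.039 at the weaker Tet2 region, 0.048 at the widest Tet3 region, 0.34 at the broad Dnmt1 region and 0.21 at the third Dnmt3a region. With the authors' fold the second Tet1 region turned to -0.145 and the third Dnmt3a region to 0.031. Without single libraries the broad Dnmt1 region ranged from -0.114 to 0.062 and the third Dnmt3a region from -0.315 to 0.064. Same-numbered libraries did not deviate together (r of 0.0134, -0.0049 and 0.0379 over 29613 regions). No pairing by number was thus seen, but the scatter of single summits could hide a weak one. With a replicate block 6 regions at the loci and 9584 in the genome fell, and no call at the named regions changed. With 3 pairs the block cannot give the locus measures an exact p below 0.25.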
